A study of Mus musculus with 25 samples.

Results

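The Klr genes on mouse chromosome 6 encode lectin-like receptors of natural killer (NK) cells that CD8+ T cells can also express after activation. The 8 genes Klrg1, Klrk1, Klrd1, Klrc1, Klrc2, Klre1, Klrb1c and Klra7 were followed here in ATAC-seq, an assay in which a transposase cuts accessible DNA so that read counts over an interval (a peak) measure how open the chromatin is. A peak was taken as a Klr peak where its midpoint had one of these genes as the nearest start of a protein-coding gene, or lay in its gene body (GENCODE vM39, GRCm39). By that rule 17 of 13527 peaks belonged to 5 of the 8 genes, namely 7 to Klrb1c, 5 to Klrg1, 2 to Klrk1, 2 to Klrc1 and 1 to Klrd1. Klrc2, Klre1 and Klra7 had none. The nearest gene is a label of position and does not show which gene a peak acts on.

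The cells were CD8+ T cells of female C57BL/6 mice, 8 to 12 weeks old at purchase, sorted from the spleen and lymph nodes of individual animals with a tetramer of OVA peptide on H-2Kb. They are called T_FGS because the OVA antigen of the paternal 2W-OVA.BALB/c strain is shared by fetus and graft. The 25 libraries form 7 groups. Naive mice (3 libraries) had received nothing, and Sensitized mice (4 libraries) had rejected paternal skin. Mice of both groups were unmated. N+P mice were naive and S+P mice sensitized before a semi-allogeneic pregnancy, and their cells were sorted after delivery into PD1- cells (N+P C1, 3 libraries; S+P C4, 4 libraries), PD1+CD73+ cells (N+P C5, 3 libraries; S+P C5, 4 libraries) and PD1+CD73- cells (S+P C7, 4 libraries). The tetramer selects a single specificity among the T cells that meet the fetus. The study's antibodies include NK1.1, the product of Klrb1c, and CD49b, the product of Itga2, in the colours of its lineage exclusion markers. Whether cells with these proteins were removed in the ATAC sort is not given in the sources used here.

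As background, KLRG1 is an inhibitory receptor for cadherins and a classical marker of effector CD8+ T cells. Klrk1 encodes NKG2D, an activating receptor for stress-induced ligands. Klrd1 encodes CD94, which pairs with NKG2A (Klrc1, inhibitory) or NKG2C (Klrc2, activating) to bind the non-classical molecule Qa-1b. Klrb1c encodes NK1.1, Klra7 the class I receptor Ly49G, and Klre1 a partner of the Klri receptors. Accessibility, not RNA or protein, was measured here, and in a bulk library a larger share of cells with an open site cannot be told apart from a more open site in every cell.

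Each peak is named by its gene and the distance of its midpoint from the gene start in bases, with + for downstream. Only Klrd1 +153 (chr6:129568381-129569280) and Klrc1 +328 (chr6:129655216-129656001) lay at a promoter (within 1000 bases of a transcript start), against 56.7% of all peaks. Klrg1 +12667 (chr6:122247002-122247493) overlapped the UTR at the 3' end of Klrg1. The 4 Klrb1c peaks at -7254 (chr6:128773095-128773769), -9202 (chr6:128775164-128775596), -10222 (chr6:128775743-128777057) and -13905 (chr6:128779462-128780705) lay in an intron of the gene model Gm44511. The remaining 10 lay between protein-coding genes. Of these, Klrg1 +13640 (chr6:122246126-122246422) lay past the end of Klrg1, and Klrg1 -2030 (chr6:122261729-122262160), -9089 (chr6:122268418-122269589) and -10962 (chr6:122270176-122271576) lay before its start. Klrb1c +28541 (chr6:128736970-128738305), +24849 (chr6:128740586-128742072) and +22302 (chr6:128743377-128744376) lay past the end of Klrb1c. Klrk1 +15123 (chr6:129584601-129586808) lay past the end of Klrk1, and Klrk1 -3724 (chr6:129604344-129604759) and Klrc1 -1472 (chr6:129656950-129657867) lay before the starts of their genes. Klrg1 -10962, Klrb1c -10222 and Klrk1 +15123 also overlapped the long non-coding RNA genes ENSMUSG00000132112, Gm34755 and Gm66636. The start of Klrd1 was 17027 bases from Klrk1 +15123, little farther than the start of Klrk1 itself. Klr peaks had a median length of 918 bp, against 963 bp over all peaks.

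The sequences below are 200-base windows (GRCm39, strand of the gene) of 8 peaks that carry the results. Klrg1 -2030, Klrg1 -10962, Klrc1 -1472 and Klrk1 -3724 are shown because they were more open after sensitization. Klrd1 +153, shown by the bases just before its gene start, and Klrk1 +15123 are shown because their group means were lowest in the PD1+ cells of S+P mice. Klrb1c +28541 and Klrb1c -10222 are shown as near copies of each other. Capitals mark matches, on either strand, to 6 motif strings, AGGTGT (T-box), TGTGGT (RUNX), TGANTCA (AP-1), CTTTGA (TCF/LEF), GGAAAA (an NFAT-type core) and CAGCTG (E-box).
Klrg1 -2030 (chr6:122261845-122262044, minus strand): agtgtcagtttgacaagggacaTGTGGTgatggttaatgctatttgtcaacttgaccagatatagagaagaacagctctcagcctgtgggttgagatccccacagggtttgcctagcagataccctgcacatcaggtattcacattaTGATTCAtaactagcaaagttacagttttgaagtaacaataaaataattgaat
Klrg1 -10962 (chr6:122270777-122270976, minus strand): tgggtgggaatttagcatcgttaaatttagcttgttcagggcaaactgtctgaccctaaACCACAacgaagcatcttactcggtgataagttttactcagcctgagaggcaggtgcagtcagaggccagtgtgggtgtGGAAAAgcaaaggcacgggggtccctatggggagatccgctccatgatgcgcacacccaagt
Klrc1 -1472 (chr6:129657309-129657508, minus strand): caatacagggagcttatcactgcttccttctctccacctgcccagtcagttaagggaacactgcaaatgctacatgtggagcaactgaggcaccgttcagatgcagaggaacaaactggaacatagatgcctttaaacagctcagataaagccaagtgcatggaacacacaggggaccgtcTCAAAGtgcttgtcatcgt
Klrk1 -3724 (chr6:129604452-129604651, minus strand): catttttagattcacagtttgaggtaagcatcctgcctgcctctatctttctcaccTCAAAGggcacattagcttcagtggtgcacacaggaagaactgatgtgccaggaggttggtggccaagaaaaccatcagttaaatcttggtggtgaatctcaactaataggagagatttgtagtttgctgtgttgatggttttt
Klrd1 +153 (chr6:129568477-129568676, plus strand): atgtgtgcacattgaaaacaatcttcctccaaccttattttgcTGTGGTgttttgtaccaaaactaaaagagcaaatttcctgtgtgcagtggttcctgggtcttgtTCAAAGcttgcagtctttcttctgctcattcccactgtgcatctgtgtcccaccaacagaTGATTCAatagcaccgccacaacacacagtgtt
Klrk1 +15123 (chr6:129585605-129585804, minus strand): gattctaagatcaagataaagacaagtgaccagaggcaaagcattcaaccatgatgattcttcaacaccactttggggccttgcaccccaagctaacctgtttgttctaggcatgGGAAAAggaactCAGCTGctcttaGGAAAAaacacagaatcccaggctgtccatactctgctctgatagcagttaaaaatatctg
Klrb1c +28541 (chr6:128737538-128737737, minus strand): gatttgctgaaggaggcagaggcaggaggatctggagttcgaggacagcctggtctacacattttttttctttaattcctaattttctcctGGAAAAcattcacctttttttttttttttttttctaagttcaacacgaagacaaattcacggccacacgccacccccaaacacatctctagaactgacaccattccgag
Klrb1c -10222 (chr6:128776301-128776500, minus strand): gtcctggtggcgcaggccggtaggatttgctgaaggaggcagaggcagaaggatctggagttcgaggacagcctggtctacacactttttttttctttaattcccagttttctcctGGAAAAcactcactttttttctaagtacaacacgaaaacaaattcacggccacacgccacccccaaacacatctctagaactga

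Over the 300 bases around the midpoint of each peak, a window that leaves out the printed stretch of Klrd1 +153, the RUNX string was present in 9 of 17 Klr peaks, against 24.4% of all peaks, and in Klrg1 -2030 it was found 3 times and in Klrg1 +12667 2 times. The T-box string was in 3 Klr peaks (14.6% of all peaks), AP-1 in 2 (9.16%), TCF/LEF in 4 (16.2%), the NFAT-type core in 5 (19.1%) and the E-box in 2 (16.5%). Both strands were searched, none of the strings contains another although matches can share bases, and a match is a description of sequence, not a binding site. The GC content of these windows ranged from 36.7% to 54.3%, below the median of 57.3% over all peaks. Klrb1c +28541 and Klrb1c -10222 aligned over 936 bases at 94.1% identity, and Klrb1c -7254 aligned over 352 bases at 95.5% with a peak near the paralog Klrb1f. Reads without a unique position were removed before counting, so the counts of these 3 peaks are uncertain in the copied stretch. The other 14 Klr peaks had no such copy among the peaks (at least 300 bases at 90% identity).

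The level per kb of peak varied from peak to peak, also within a gene. In Naive cells the Klrb1c peaks lay between 268 and 834 normalized counts per kb, Klrd1 +153 at 505 ± 29.2 and Klrk1 +15123 at 417 ± 34.1 (SD, n = 3), whereas Klrg1 -2030, +12667, +13640 and Klrc1 +328 lay between 7.47 and 34.3. The other peaks of these genes lay higher, Klrg1 -10962 at 50, Klrk1 -3724 at 148, Klrg1 -9089 at 315 and Klrc1 -1472 at 329 per kb. In S+P C7 cells the order was different, with Klrc1 -1472 at 830 ± 130, Klrb1c -9202 at 822 ± 174, Klrg1 +13640 at 821 ± 167 and Klrb1c -7254 at 800 ± 68.1 highest and within their spread, and Klrk1 +15123 (234 ± 70.4) and Klrd1 +153 (259 ± 45.3, SD, n = 4) lowest and within theirs. A normalized count is the count divided by the size factor of its library.

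**Figure D1:**
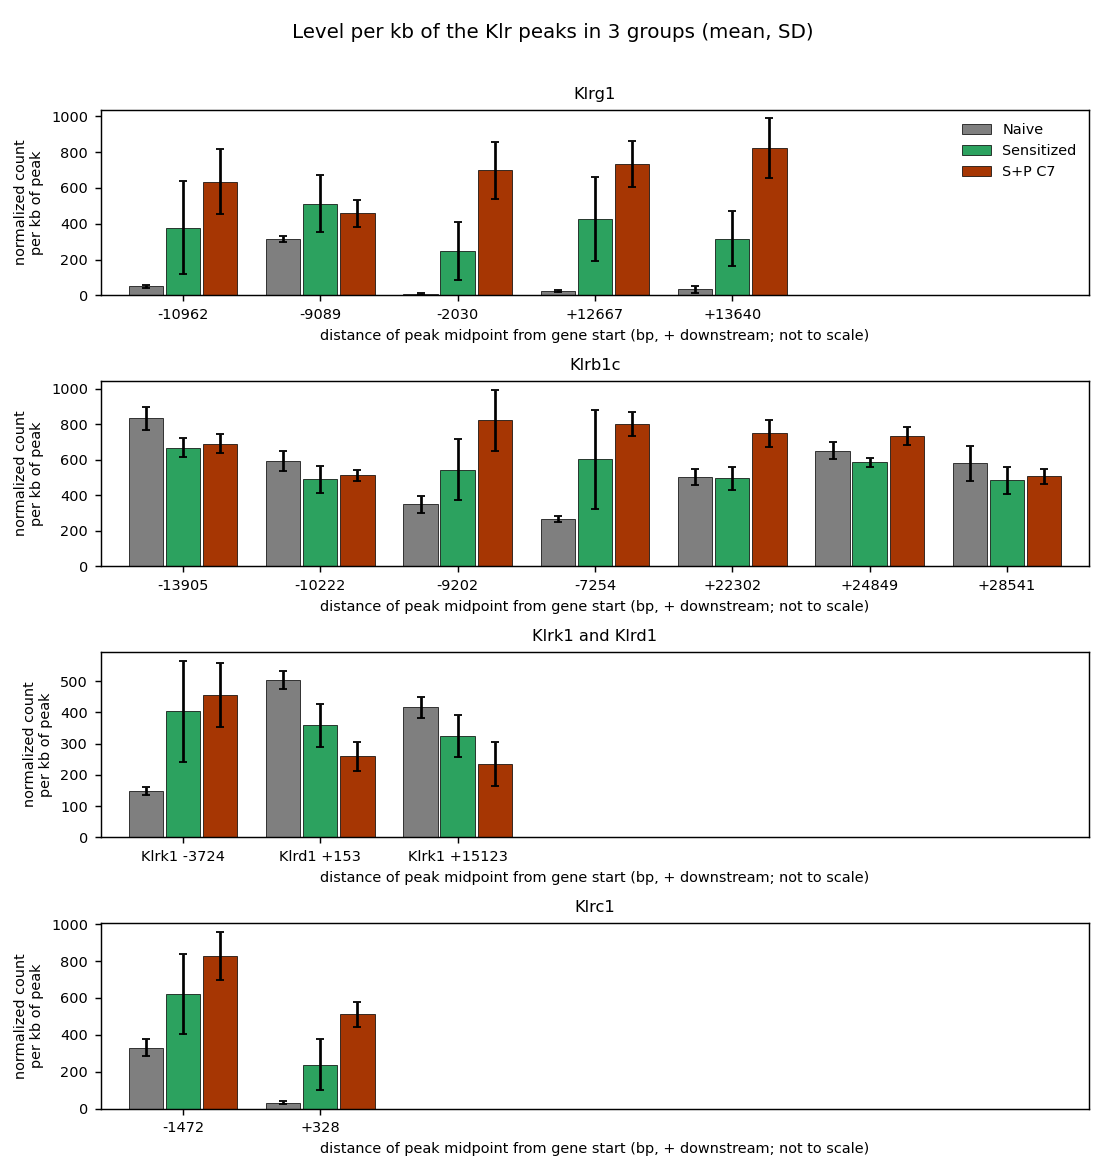
Normalized counts per kb (y axis, mean with SD bars) of the 17 Klr peaks, ordered by distance from the gene start (x axis, bases, not to scale), in Naive (n = 3), Sensitized (n = 4) and S+P C7 (n = 4) libraries. Klrg1 -2030 rises from 7.47 to 697 per kb between Naive and S+P C7, while Klrd1 +153 goes from 505 to 259.

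Library totals in peaks ranged from 2430890 (S+P C4 replicate 1) to 25419715 counts. Of 10 CD8+ T cell markers 9 had peaks (Cd8b1 had none), and none of 6 B cell and 6 myeloid markers had any. Among CD4+ T cell markers only Cd4 had peaks, 2 of them, with a summed level of 236 to 633, and among erythroid markers only Klf1 had 1 peak (388 to 528). The NK cell list of 7 genes had peaks for 5 (not for Ncr1 and Kit), with a summed level of 6133 to 6992 in Naive, 6982 to 7525 in N+P C1, 6961 to 7545 in N+P C5, 6560 to 7126 in Sensitized, 7040 to 7875 in S+P C4, 6986 to 7676 in S+P C5 and 7636 to 8447 in S+P C7 libraries, so the whole list did not separate sensitized from unsensitized mice. Without Klrb1c its 7 peaks summed to 2104 to 2273 in Naive, 2234 to 2291 in N+P C1, 2254 to 2383 in N+P C5, 2449 to 3020 in Sensitized, 2627 to 2995 in S+P C4, 3041 to 3275 in S+P C5 and 2829 to 3179 in S+P C7 libraries. This sum without Klrb1c thus moved with the sensitized groups, and its part in the Klr results was not tested. Ncr1, which defines NK cells, had no peak in any list. Neither had Cd8b1 in these CD8+ T cells, so a missing peak does not show that a cell type is absent.

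The 4 Sensitized libraries did not form a tight group at the Klr peaks. Replicates 1 and 2 had a mean log2(normalized count + 1) over the 17 peaks of 8.71 and 8.79, and replicates 3 and 4 had 8.01 and 8.21, although replicates 3 and 4 were the deeper libraries (14222268 and 15041041 counts). Comparisons with Sensitized cells are therefore given with and without replicates 3 and 4, and since these are low at most of the peaks called higher, leaving them out raises the Sensitized means there by construction. S+P C4 replicate 1, the shallowest library, was likewise low (8.11, against 8.73 to 9.0 in its group). The 9 libraries of unsensitized mice ranged from 6.86 to 7.54, below all 16 libraries of sensitized mice, which ranged from 8.01 to 9.09.

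The first comparison asked how T_FGS of mice that had rejected a graft differ from naive ones at these receptors. Sensitized cells had higher accessibility at 4 of 5 Klrg1, 2 of 2 Klrc1, 1 of 2 Klrk1 and 1 of 7 Klrb1c peaks, by up to 30.8-fold at Klrg1 -2030. Of the 17 Klr peaks 8 were called, all higher, against 8.62% of all 13527 peaks called and 7.22% called higher. Calls required an adjusted p below 0.1 together with an absolute log2 fold change above 0.9 (DESeq2 Wald test, adjusted over all peaks). The median log2 fold change was 0.70 over the Klr peaks and -0.01 over all peaks. The 2 groups did not overlap at 12 of 17 Klr peaks, against 22.7% of all peaks. The peaks tested are the merged peak lists of the 7 groups. Of the 8 called peaks, all but Klrc1 -1472 were only on peak lists of groups of sensitized mice. Those peaks entered through groups in which they are high, so their calls and lack of overlap are not independent support. The sum of NK cell markers without Klrb1c was also higher in all 4 Sensitized than in all 3 Naive libraries, while the sum of the whole list overlapped.

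At Klrg1 -2030, upstream of the gene for the inhibitory receptor, the 3 Naive libraries had normalized counts of 0, 5.90 and 3.79, and the 4 Sensitized libraries 171, 159, 26.9 and 67.8. N+P C1 libraries had 2.2, 3.36 and 22.6 and N+P C5 libraries 3.02, 4.11 and 4.81. S+P C4 libraries had 61.2, 227, 296 and 271, S+P C5 libraries 93.0, 268, 111 and 119, and S+P C7 libraries 203, 313, 331 and 357. All 16 libraries of sensitized mice lay above all 9 of unsensitized mice, and the lowest of them was Sensitized replicate 3. The fitted log2 fold change of Sensitized over Naive was 4.95 ± 0.74 (SE, adjusted p = 1.32e-09). The raw counts behind the Naive values were 0, 6 and 6, so this fold rests on few reads. With offsets fitted by loess to the mean level it was 2.84, below the 2.94 of Klrg1 -10962 and the 2.89 of Klrg1 +12667, so its size and rank depend on the scaling.

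Klrg1 +12667, at the 3' end of the gene, had 13.8, 13.8 and 8.20 in Naive, 6.64, 4.49 and 7.54 in N+P C1 and 11.1, 8.22 and 7.21 in N+P C5 libraries. Libraries of sensitized mice had 297, 319, 88.3 and 137 (Sensitized), 143, 218, 382 and 311 (S+P C4), 192, 283, 208 and 222 (S+P C5) and 330, 306, 355 and 451 (S+P C7). The 2 sets of libraries again did not overlap, and the log2 fold change of Sensitized over Naive was 4.18 ± 0.44 (SE, adjusted p = 7.36e-19). Just past the end of the gene, Klrg1 +13640 had 11, 15.7 and 3.79 in Naive, 0, 2.24 and 22.6 in N+P C1 and 8.05, 0 and 3.61 in N+P C5 libraries. Libraries of sensitized mice had 125, 140, 53.9 and 56.9 (Sensitized), 40.8, 192, 209 and 227 (S+P C4), 101, 132, 107 and 122 (S+P C5) and 219, 196, 250 and 310 (S+P C7), with no overlap with the other mice. Sensitized exceeded Naive by 3.24 ± 0.65 on the log2 scale (SE, adjusted p = 1.16e-05), but with loess offsets the difference was 1.21 with an adjusted p of 0.265 and not called.

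Klrg1 -10962, over a non-coding RNA gene upstream, started from a measurable level, at 79.9, 74.7 and 55.5 in Naive, 23.2, 55.0 and 60.3 in N+P C1 and 46.3, 67.2 and 44.5 in N+P C5 libraries. The Sensitized libraries had 746, 934, 202 and 241, and S+P cells had 296, 541, 779 and 650 (C4), 391, 843, 654 and 628 (C5) and 555, 992, 1157 and 852 (C7). The gap between Sensitized replicates 1 and 2 and replicates 3 and 4 was thus wider than the whole range of the Naive and N+P libraries. The log2 fold change of Sensitized over Naive was 2.93 ± 0.48 (SE, adjusted p = 3.16e-08). At the neighbouring Klrg1 -9089 the groups did not overlap either, with 353 to 393 in Naive and 427 to 851 in Sensitized libraries, but its log2 difference of 0.70 ± 0.20 (SE, adjusted p = 0.00481) lay under the fold threshold.

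Both Klrc1 peaks, at and upstream of the gene for the inhibitory partner of CD94, were called. The promoter peak Klrc1 +328 had 31.7, 20.7 and 22.1 in Naive, 14.4, 7.85 and 11.3 in N+P C1 and 18.1, 38.4 and 25.3 in N+P C5 libraries. Libraries of sensitized mice had 304, 252, 76.8 and 112 (Sensitized), 122, 204, 422 and 305 (S+P C4), 272, 361, 354 and 248 (S+P C5) and 347, 407, 471 and 380 (S+P C7). No library of a sensitized mouse fell to the level of an unsensitized one, and the log2 fold change of Sensitized over Naive was 2.92 ± 0.42 (SE, adjusted p = 3.44e-10). Klrc1 -1472 was open in every group, at 285, 270 and 351 in Naive, 250, 297 and 390 in N+P C1 and 316, 288 and 334 in N+P C5 libraries. Libraries of sensitized mice had 760, 727, 377 and 422 (Sensitized), 303, 553, 894 and 666 (S+P C4), 650, 759, 738 and 551 (S+P C5) and 616, 790, 903 and 738 (S+P C7). Here S+P C4 replicate 1 and Sensitized replicate 3 fell among the unsensitized libraries, the latter below N+P C1 replicate 3. The log2 fold change of Sensitized over Naive, 0.92 ± 0.27 (SE, adjusted p = 0.00613), lay just inside the threshold, and without Naive replicate 1 or 2 or Sensitized replicate 1 or 2 it was 0.88, 0.84, 0.75 and 0.78 and not called.

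Klrk1 -3724, upstream of the NKG2D gene, had 60.6, 67.9 and 56.8 in Naive, 57.5, 46.0 and 60.3 in N+P C1 and 72.4, 74.0 and 62.5 in N+P C5 libraries. Sensitized libraries had 228, 224, 102 and 117, and the S+P subsets had 64.7, 145, 194 and 146 (C4), 172, 208, 236 and 150 (C5) and 129, 192, 229 and 208 (C7). Only S+P C4 replicate 1 overlapped the unsensitized range. The log2 fold change of Sensitized over Naive was 1.44 ± 0.32 (SE, adjusted p = 8.82e-05), and with loess offsets it was 0.72 and not called. Klrb1c -7254, upstream of the NK1.1 gene, had 175, 173 and 194 in Naive, 157, 164 and 249 in N+P C1, 195, 193 and 226 in N+P C5 and 572, 564, 251 and 239 in Sensitized libraries. S+P libraries had 221, 506, 523 and 535 (C4), 340, 537, 453 and 380 (C5) and 490, 512, 580 and 578 (C7). Sensitized exceeded Naive by 1.17 ± 0.29 on the log2 scale (SE, adjusted p = 0.000991), while Sensitized replicates 3 and 4 lay close to the highest N+P C1 library.

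**Figure D2:**
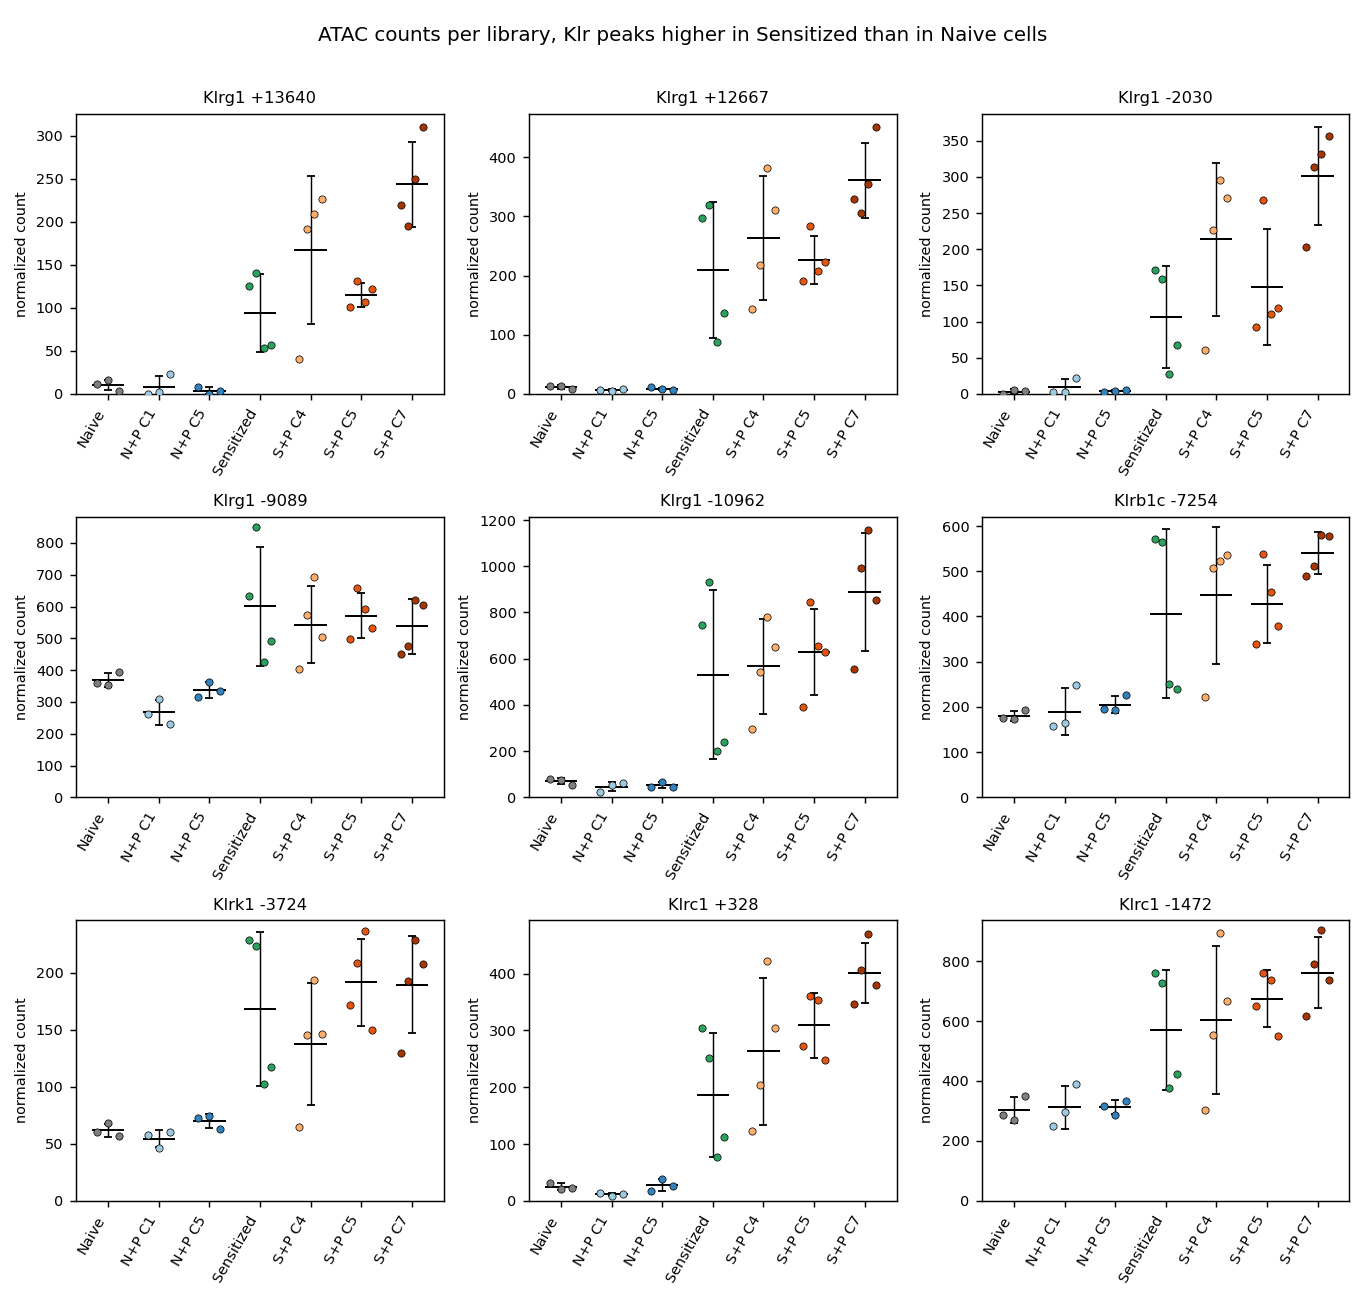
Normalized counts (y axis) of 9 Klr peaks in each library (points) by group (x axis), with the mean (line) and SD (bars), for n = 3 or 4 libraries a group. The Naive and N+P libraries stay near the axis at Klrg1 -2030, +12667, +13640 and Klrc1 +328, and the Sensitized points split into a high and a low pair.

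Without Sensitized replicates 3 and 4, which are the lower pair at the peaks called, 10 Klr peaks were called in Sensitized against Naive, all higher, against 15.2% of all peaks called and 9.44% called higher. The 2 added were Klrg1 -9089 (log2 fold change 1.00, adjusted p = 2.84e-06) and Klrb1c -9202 (0.98, adjusted p = 0.00715) in DESeq2. Leaving out any single library gave 7 or 8. No Klr peak was called lower in Sensitized cells. Of 12 Klr peaks with an adjusted p under 0.1 at any fold (20.5% of all peaks), 9 were higher and 3 lower. Klrd1 +153 fell by 0.49 ± 0.17 (SE, adjusted p = 0.0253), Klrb1c -13905 fell by 0.32 ± 0.10 (adjusted p = 0.0108) and Klrb1c -10222 fell by 0.27 ± 0.10 (adjusted p = 0.0566) on the log2 scale in the DESeq2 fit.

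Pregnancy of naive mice was compared next, in sorted subsets set against Naive cells whose labels give no PD1 or CD73 gate. No Klr peak was called in N+P C1 or N+P C5 against Naive, where 1 of all 13527 peaks (0.00739%) was called in each, or in N+P C5 against N+P C1 (0.0% of all peaks). edgeR's quasi-likelihood test also called 0 in each of the 3. From N+P C1 to N+P C5 all 3 pairs were higher at 5 of 17 Klr peaks and lower at 1, against 18.3% and 14.6% of all peaks, and with the replicate number as a block 0 were called (0.0148% of all peaks). At an unadjusted p under 0.05 there were 4, 0 and 1 Klr peaks of 17, against 19%, 17.5% and 2.28% of all peaks. DESeq2's independent filter left 12 of the 17 without an adjusted p in each of the comparisons with Naive. The 4 at an unadjusted p under 0.05 in N+P C1 were Klrc1 +328 (log2 fold change -1.13, 95% interval -2.17 to -0.09), Klrg1 -9089 (-0.46, -0.89 to -0.03), Klrb1c -10222 (0.35, 0.14 to 0.57) and Klrb1c +28541 (0.34, 0.05 to 0.63). Of these, Klrb1c -10222 had an adjusted p of 0.0495, under the threshold of p (4.29% of all peaks at any fold) but not of fold. The 95% intervals were wide at the low peaks. For Klrg1 -2030 in N+P C5 against Naive the interval ran from -1.56 to 1.95, which holds the fold threshold of 0.9 in both directions but not the 4.95 of Sensitized against Naive. For Klrd1 +153 it ran from -0.29 to 0.42 and for Klrk1 +15123 from -0.16 to 0.62.

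Pregnancy of sensitized mice was compared with sensitization alone for each sorted subset. No Klr peak was called in PD1- cells (S+P C4) or in PD1+CD73+ cells (S+P C5) against Sensitized, where 0.858% and 6.74% of all peaks were called, and edgeR called 0 in both. At an unadjusted p under 0.05 there were 2 and 3, against 18.7% and 37.7% of all peaks. In S+P C4 cells 2 Klr peaks had an adjusted p under 0.1 (6.54% of all peaks at any fold), both higher. Klrb1c +24849 and Klrb1c +22302, downstream of the NK1.1 gene, exceeded Sensitized by 0.20 ± 0.07 and 0.36 ± 0.12 on the log2 scale (SE, adjusted p = 0.0859 and 0.0725). Without Sensitized replicates 3 and 4 their adjusted p in DESeq2 were 0.0758 and 0.314, so Klrb1c +22302 was no longer under 0.1, while Klrb1c -10222 came under it (log2 difference 0.29, adjusted p = 0.0586). In S+P C5 cells the 2 peaks with an adjusted p under 0.1 (32.9% of all peaks at any fold) were both lower, Klrd1 +153 and Klrk1 +15123. No Klr peak was called in S+P C4 (2.31% of all peaks) or S+P C5 (3.25%) without Sensitized replicates 3 and 4 either. Leaving out 1 library at a time gave 0 to 1 calls in each, and the replicate number as a block gave 1 in S+P C5. All comparisons of S+P subsets with Sensitized share the 4 Sensitized libraries, whose labels give no PD1 or CD73 gate. Pregnancy and the sort thus cannot be told apart in them.

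Klrd1 +153, at the promoter of the CD94 gene, had 427, 456 and 479 in Naive, 386, 487 and 535 in N+P C1 and 440, 469 and 521 in N+P C5 libraries. Sensitized libraries had 242, 314, 388 and 349, S+P C4 316, 350, 303 and 325, S+P C5 249, 155, 189 and 202 and S+P C7 252, 177, 272 and 233. Levels thus stood highest in unsensitized mice, with N+P C1 replicate 1 just under Sensitized replicate 3, intermediate in Sensitized and S+P C4 cells, which overlapped, and lowest in the PD1+ cells of S+P mice, although Sensitized replicate 1 lay below S+P C5 replicate 1 and S+P C7 replicates 1 and 3. S+P C5 fell by 0.68 ± 0.16 against Sensitized (SE, adjusted p = 0.000407) and by 0.69 ± 0.16 against S+P C4 (adjusted p = 0.000858), and S+P C7 fell by 0.47 ± 0.16 against Sensitized (adjusted p = 0.0117), on the log2 scale in DESeq2.

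Klrk1 +15123, between Klrk1 and Klrd1, had 934, 839 and 987 in Naive, 876, 1135 and 1202 in N+P C1 and 945, 1099 and 1198 in N+P C5 libraries. Sensitized libraries had 545, 649, 838 and 846, S+P C4 820, 726, 673 and 791, S+P C5 499, 392, 496 and 538 and S+P C7 465, 352, 527 and 723. All S+P C5 libraries lay below all Sensitized and S+P C4 libraries, and the 2 groups did not overlap at 14.7% and 11.7% of all peaks in these comparisons. The differences were -0.58 ± 0.17 against Sensitized (SE, adjusted p = 0.0079) and -0.64 ± 0.17 against S+P C4 (adjusted p = 0.00504) on the log2 scale, and for S+P C7 against Sensitized -0.47 ± 0.17 (adjusted p = 0.0195). None passed the fold threshold. Klrd1 +153 and Klrk1 +15123 were on the peak list of Sensitized cells and not on those of S+P C5 and S+P C7. Without Sensitized replicates 3 and 4, S+P C5 against Sensitized was -0.46 (adjusted p = 0.105) at Klrd1 +153 and -0.30 (adjusted p = 0.399) at Klrk1 +15123, so neither stayed under the threshold. At both peaks replicates 3 and 4 are the higher pair, so leaving them out narrows these differences by construction. S+P C7 against Sensitized was then -0.24 (adjusted p = 0.372) and -0.20 (adjusted p = 0.52), whereas the comparison with S+P C4 does not use those libraries in its means.

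**Figure D3:**
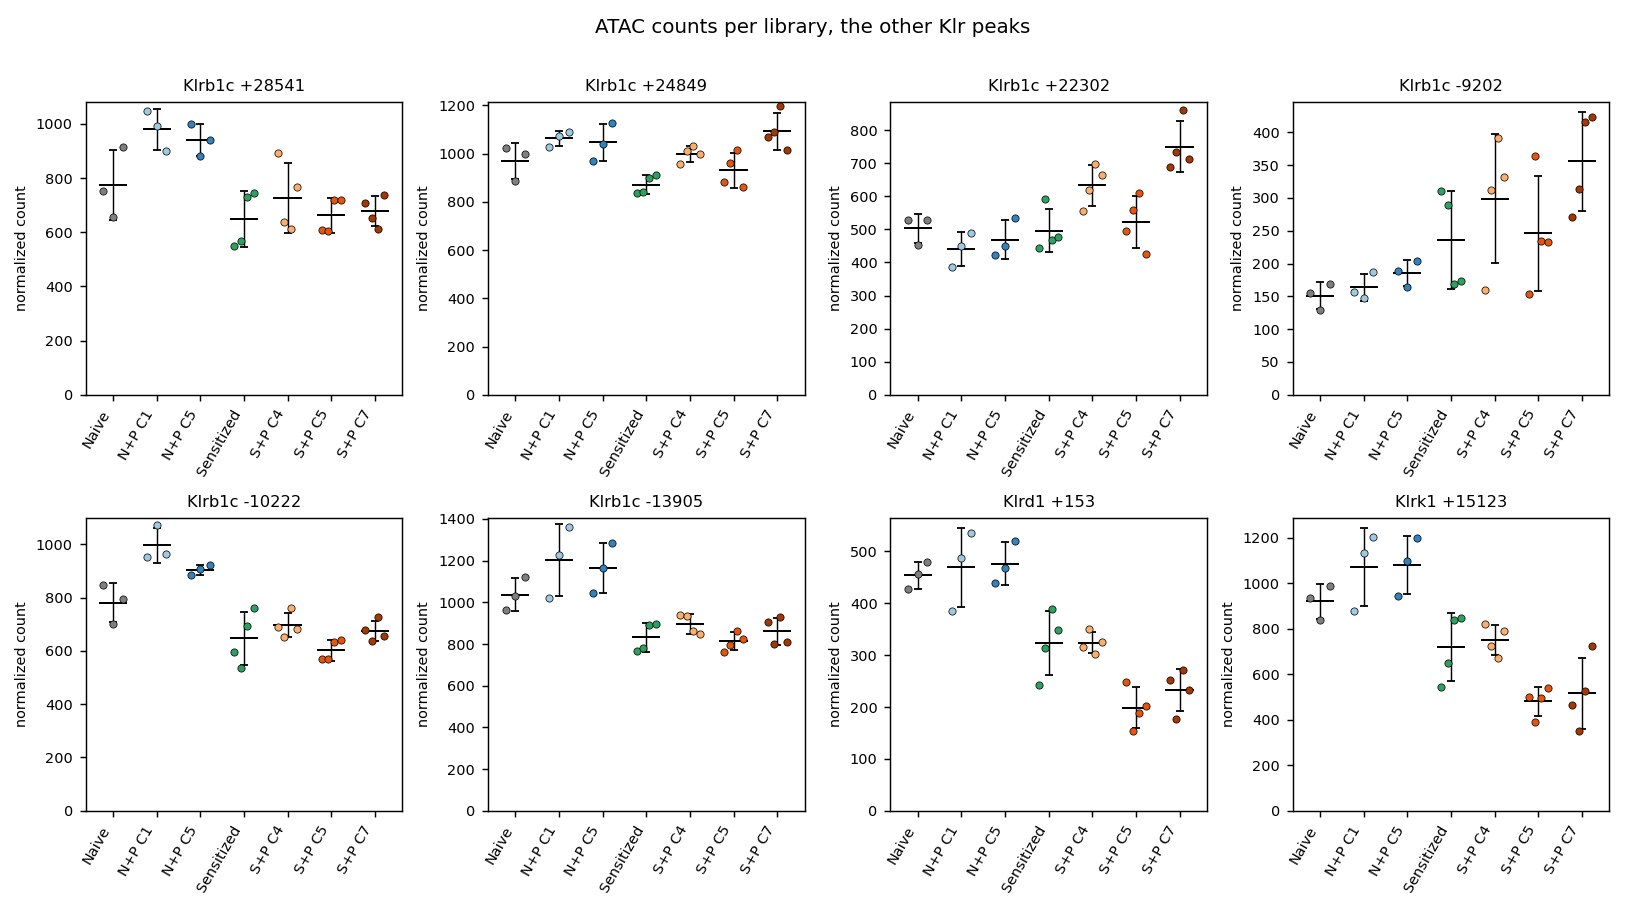
Normalized counts (y axis) of the other 8 Klr peaks in each library (points) by group (x axis), with the mean (line) and SD (bars), for n = 3 or 4 libraries a group. The group means of Klrd1 +153 and Klrk1 +15123 are lowest in S+P C5 and S+P C7, some of whose libraries overlap Sensitized, and the Klrb1c peaks are open in every library.

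Whether the C5 effect of pregnancy differed by background was tested as an interaction, a test chosen after seeing the data, the log2 change from Sensitized to S+P C5 less the change from Naive to N+P C5. Each change sets PD1+CD73+ cells against cells whose labels give no PD1 or CD73 gate. Pregnancy and the sort therefore cannot be told apart in it. No Klr peak was called (5.97% of all peaks). At 3 peaks the difference had an adjusted p under 0.1 (31.2% of all peaks), all lower in the sensitized background. For Klrk1 +15123 it was -0.81 ± 0.26 (SE, adjusted p = 0.0223), from -0.58 in sensitized and 0.23 in naive mice, and for Klrd1 +153 it was -0.75 ± 0.24 (adjusted p = 0.0211), from -0.68 and 0.07. Klrb1c -10222 differed by -0.32 ± 0.15 (adjusted p = 0.0985). At an unadjusted p under 0.05 there were 3 Klr peaks (36.7% of all peaks). Leaving out Sensitized replicates 3 and 4, none was called (2.36% of all peaks), and the differences were -0.53 (adjusted p = 0.224), -0.52 (adjusted p = 0.202) and -0.12 (adjusted p = 0.596), so none of the 3 stayed under an adjusted p of 0.1 in DESeq2. Without Sensitized replicate 1, the lowest at both peaks, Klrk1 +15123 was called (-0.92, adjusted p = 0.00208).

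In S+P C7 against Sensitized, 3 Klr peaks were called, all higher, against 11.9% of all peaks called and 3.84% called higher. They were Klrg1 -2030 (log2 fold change 1.51 ± 0.55, adjusted p = 0.019), Klrg1 +13640 (1.38 ± 0.55, adjusted p = 0.031) and Klrc1 +328 (1.11 ± 0.36, adjusted p = 0.00791; SE). At each of the 3 peaks the lowest S+P C7 library exceeded the highest Sensitized library. Over all Klr peaks the groups did not overlap at 5 of 17, near the 25.5% of all peaks. Sensitized replicates 3 and 4 are the lower pair at these peaks too, so leaving them out lowers these differences by construction. Without Sensitized replicates 3 and 4 none was called (6.96% of all peaks), with log2 fold changes in the same order of 0.87, 0.88 and 0.53 and adjusted p of 0.268, 0.322 and 0.26. Without Sensitized replicate 4 alone Klrg1 +13640 was lost (1.2, adjusted p = 0.104), and without replicate 3 alone Klrc1 +328 (0.85). Without replicate 1 or replicate 2 the count was 5, with Klrg1 +12667 and Klrg1 -10962 added (14.5% and 13.1% of all peaks called). With loess offsets the 3 values were 0.20, -0.10 and 0.45, and none was called (10.6% of all peaks). At any fold 9 Klr peaks had an adjusted p under 0.1, 7 higher and 2 lower, against 52.9% of all peaks. Below the fold threshold, Klrb1c +22302 exceeded Sensitized by 0.59 ± 0.12 (adjusted p = 1.41e-05) and Klrb1c +24849 by 0.32 ± 0.07 (adjusted p = 4.52e-05) in DESeq2, and these had adjusted p of 0.00563 and 0.000397 without replicates 3 and 4.

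Between subsets of S+P mice, the libraries carry shared replicate numbers that pair them. For S+P C5 against S+P C4 no Klr peak was called (5.12% of all peaks), edgeR called 0, and 4 had an unadjusted p under 0.05 (20.6% of all peaks). The 2 with an adjusted p under 0.1 (13.3% of all peaks) were Klrd1 +153 and Klrk1 +15123, each lower in S+P C5 in 4 of 4 pairs. With the replicate number as a block 0 were called as well (5.49% of all peaks). With loess offsets 3 were called, all lower in S+P C5 (5.15% of all peaks called, 3.11% lower), at Klrg1 -2030 (-2.09), Klrg1 +13640 (-2.0) and Klrg1 +12667 (-1.15), against -0.55, -0.55 and -0.23 with size factors. For S+P C7 against S+P C5 no Klr peak was called in the DESeq2 fit over all libraries (2.38% of all peaks), and edgeR called 0. At an unadjusted p under 0.05 there were 5 (18.4% of all peaks). Of these, Klrb1c +22302 (0.52 ± 0.12, adjusted p = 0.00158) and Klrb1c +24849 (0.23 ± 0.07, adjusted p = 0.0253) also had an adjusted p under 0.1 (8.93% of all peaks). A fit to the 2 groups only, also without a block, called 2, both higher in S+P C7 (2.66% of all peaks called). With the block 2 were called, both higher in S+P C7, where 3.27% of all peaks were called and 0.414% called higher. They were Klrg1 -2030 (1.14 ± 0.20, adjusted p = 2.93e-07) and Klrg1 +13640 (1.09 ± 0.18, adjusted p = 2.46e-08; log2, SE). Both were on the peak list of S+P C7 alone, a group in which they are high.

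The pairs at Klrg1 +13640 were 101 and 219, 132 and 196, 107 and 250, and 122 and 310 normalized counts in S+P C5 and S+P C7. At Klrg1 -2030 they were 93.0 and 203, 268 and 313, 111 and 331, and 119 and 357. Every pair was higher in S+P C7 at 9 of the 17 Klr peaks and none was lower in every pair, against 19.7% and 22.3% of all peaks. From S+P C4 to S+P C5 every pair was higher at 1 Klr peak (Klrk1 -3724) and lower at 6, against 16% and 16.8% of all peaks. Klrg1 +12667 (0.69 ± 0.15, adjusted p = 6.54e-05), Klrb1c +22302 (0.53 ± 0.09, adjusted p = 3.9e-07) and Klrg1 -10962 (0.51 ± 0.10, adjusted p = 5.16e-06) passed the threshold of p in the blocked DESeq2 fit without reaching that of fold (log2, SE). Among Klr peaks 9 had an adjusted p under 0.1 there, all higher, against 26.3% of all peaks. In the same pairs Klrk1 -3724 was higher in 1 of 4 (log2 difference -0.02 ± 0.18) and Klrk1 +15123 in 2 of 4 (0.08 ± 0.12).

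**Figure D4:**
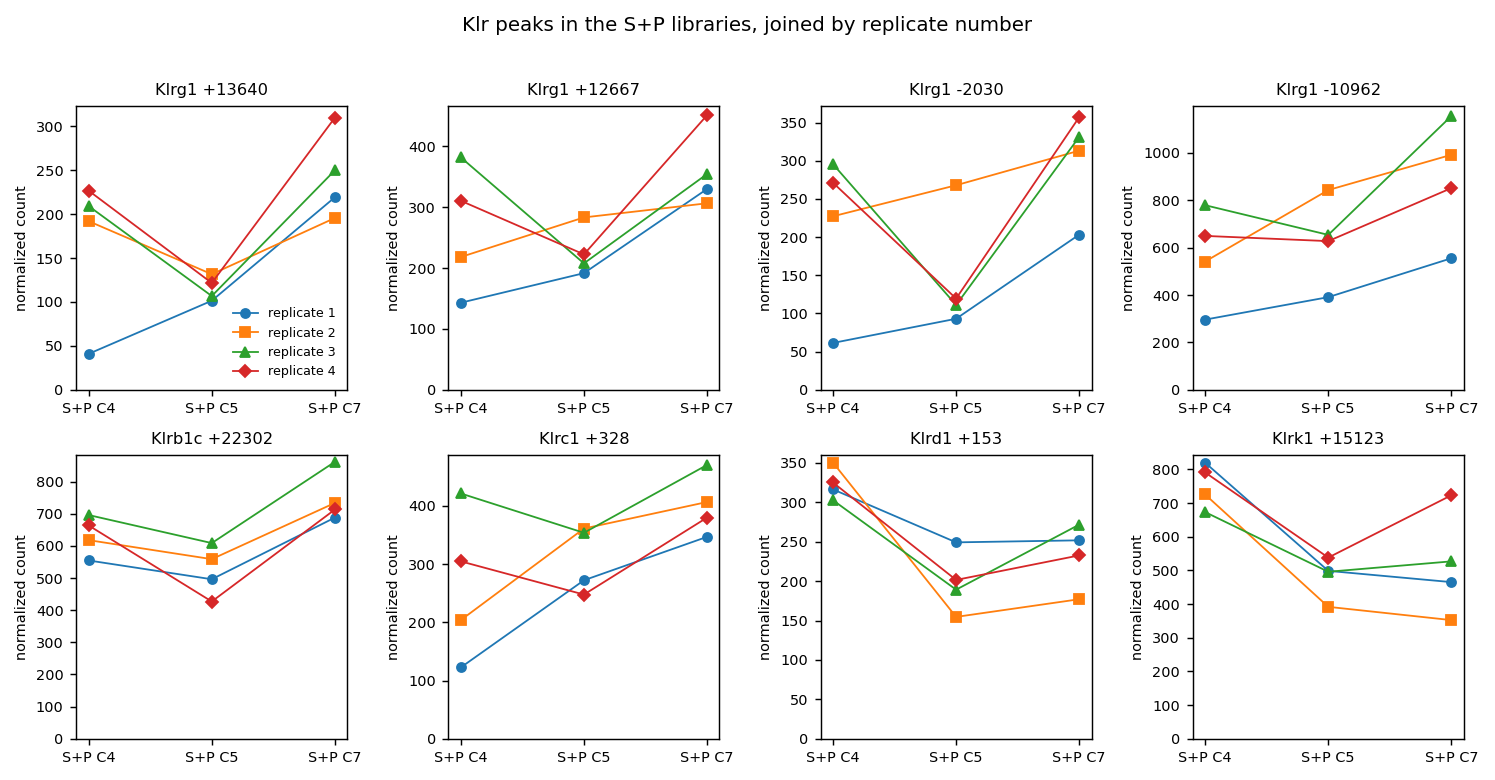
Normalized counts (y axis) of 8 Klr peaks in the libraries of the 3 S+P subsets (x axis), with a line for each replicate number (n = 4). The lines rise from S+P C5 to S+P C7 at the 4 Klrg1 peaks, Klrb1c +22302 and Klrc1 +328, and fall from S+P C4 to S+P C5 at Klrd1 +153 and Klrk1 +15123.

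The PD1+CD73+ cells of sensitized and naive mice were compared directly after pregnancy. Of 17 Klr peaks 10 were called in S+P C5 against N+P C5, 8 higher and 2 lower, against 17.2% of all peaks called, 10.3% higher and 6.97% lower. At any fold 15 had an adjusted p under 0.1 (63.8% of all peaks), and the groups did not overlap at 14 (62.9% of all peaks). The 8 higher peaks were the 8 that were called in Sensitized against Naive, all but Klrc1 -1472 only on peak lists of groups of sensitized mice. With size factors the largest was Klrg1 -2030 (log2 fold change 5.22 ± 0.75), followed by Klrg1 +13640 (4.81 ± 0.74), Klrg1 +12667 (4.66 ± 0.47), Klrg1 -10962 (3.58 ± 0.48) and Klrc1 +328 (3.52 ± 0.43; SE), with adjusted p from 2.77e-20 to 1.63e-09. Klrk1 -3724 exceeded N+P C5 by 1.46 ± 0.32, Klrc1 -1472 by 1.11 ± 0.27 and Klrb1c -7254 by 1.06 ± 0.29 (adjusted p = 2.82e-05, 0.000168 and 0.00118). The 2 lower peaks were Klrd1 +153, which fell by 1.24 ± 0.17 (adjusted p = 1.92e-11), and Klrk1 +15123, which fell by 1.16 ± 0.19 (adjusted p = 8.24e-09). Both were on the peak list of N+P C5 and not on that of S+P C5. Apart from Klrc1 -1472, the calls are thus not independent of the peak lists. Leaving out any single library kept the count at 10. With loess offsets 8 were called (15.6% of all peaks), without Klrg1 +13640 (1.45, adjusted p = 0.113) and Klrk1 -3724 (0.10, adjusted p = 0.777). Klrg1 -2030 was then 1.83, behind Klrg1 -10962 (3.45), Klrg1 +12667 (2.49) and Klrc1 +328 (1.95), so this order too depends on the scaling. Raw counts in N+P C5 libraries were 3, 3 and 4 at Klrg1 -2030 and 8, 0 and 3 at Klrg1 +13640, so these folds rest on few reads.

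With all libraries in the fit with size factors, the Klrb1c peaks other than -7254 were not called in any comparison. Klrb1c +24849 and Klrb1c -13905 were on the peak lists of all 7 groups, with group means of 871 to 1092 and 812 to 1202 normalized counts. Klrb1c +28541 and Klrb1c -10222, which share sequence, had means of 647 to 980 and 603 to 996, lowest in groups of sensitized mice in both. Against N+P C5, S+P C5 fell by 0.58 ± 0.10 at -10222, by 0.52 ± 0.10 at -13905 and by 0.50 ± 0.14 at +28541 (SE, adjusted p = 2.46e-07, 1.58e-06 and 0.00108), all under the fold threshold. Klrb1c +22302 had means of 441 to 749 and Klrb1c -9202 of 151 to 356, both highest in S+P C7. The means of Klrg1 -9089 ranged from 267 in N+P C1 to 601 in Sensitized.

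**Figure D5:**
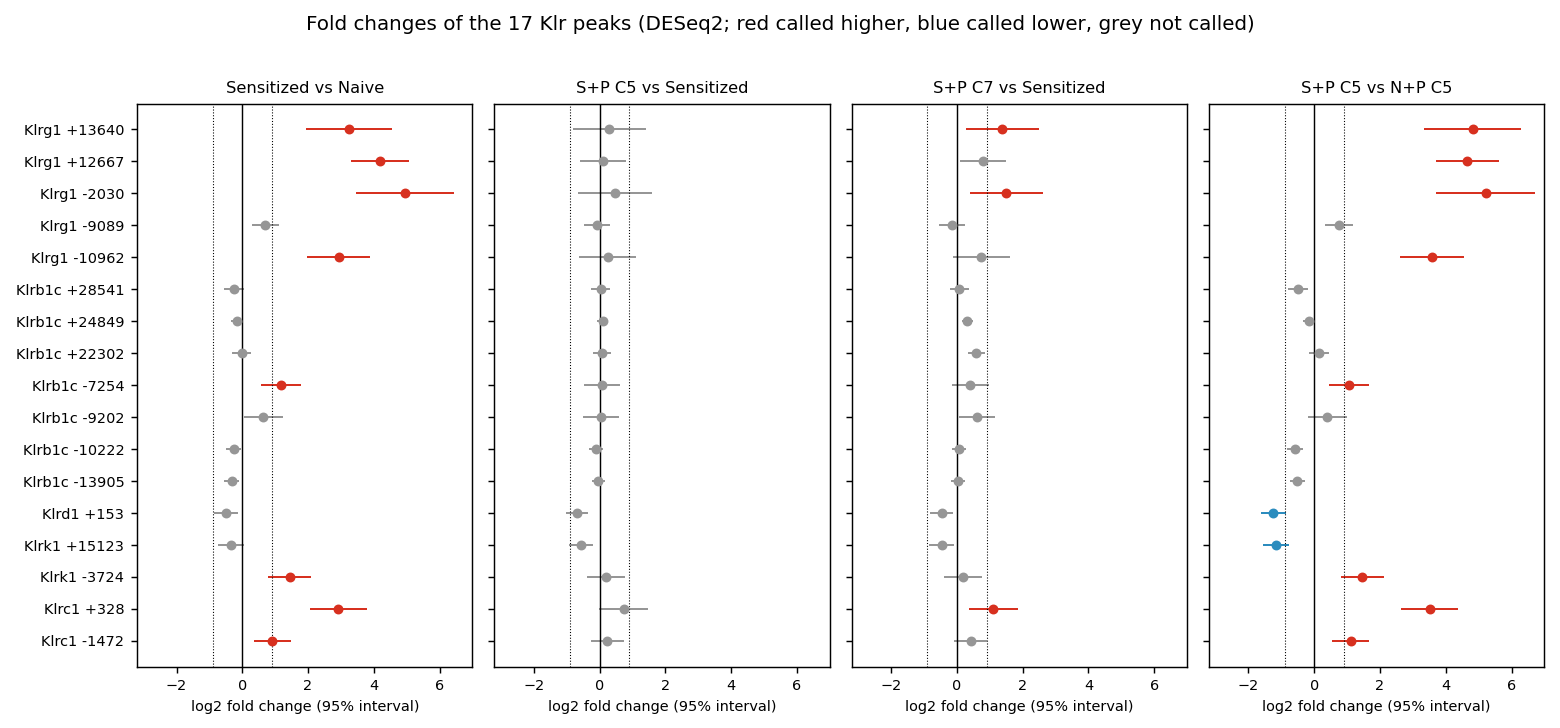
Log2 fold changes (x axis, points, with 95% intervals as lines) of the 17 Klr peaks (y axis) in 4 comparisons, from DESeq2, with dotted lines at the fold threshold of 0.9. The 8 peaks called higher in Sensitized against Naive are called again in S+P C5 against N+P C5, where Klrd1 +153 and Klrk1 +15123 are called lower, and 0 are called in S+P C5 against Sensitized.

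Related genes were described by their counts of called peaks. Of 19 other Klr genes only Klrb1b, Klrb1f and Klri2 had peaks, 4 in all, and none was called in any of the 10 comparisons in DESeq2. The list of adaptors and signalling proteins of these receptors, 63 peaks of 20 of its 23 genes, had 5 peaks called higher and 1 lower in Sensitized against Naive and 9 higher and 1 lower in S+P C5 against N+P C5, shares near those of all peaks (8.62% and 17.2% called). In S+P C5 against Sensitized 5 were higher and 0 lower. Of all peaks 6.74% were called there in either direction, and the share called higher alone is not given here. The 5 were a peak of Ptpn11, the phosphatase SHP-2 that inhibitory receptors recruit (log2 fold change 2.02 ± 0.34, adjusted p = 1.9e-07), 3 of the kinase gene Fyn (1.00 to 1.59) and 1 of Cd247 (0.97 ± 0.24, adjusted p = 0.00102). Of 17 ligand peaks 1 was called in the same comparison, no more than the share of all peaks called in either direction. It was higher, at the NK receptor ligand gene Clec2d (1.95 ± 0.37, adjusted p = 7.07e-06).

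The other NK-type receptors, 31 peaks of 10 of 14 genes, had 4 peaks called higher in Sensitized against Naive, where 7.22% of all peaks were called higher. These were at Itga2 (4.46 ± 0.55), the promoter of Slamf7 (2.94 ± 0.65), the promoter of the inhibitory receptor gene Lilrb4a (2.54 ± 0.33) and Crtam (1.07 ± 0.30; log2, SE). In S+P C5 against Sensitized, where 6.74% of all peaks were called, 3 were higher, at Slamf7 (3.11 ± 0.49), the inhibitory receptor gene Tigit (2.41 ± 0.19) and Clec2d, a gene of both lists, and 5 were lower, 3 of the activating receptor gene Cd226 and 1 each of Cd96 (-1.70 ± 0.48) and Crtam (-1.04 ± 0.20). In S+P C5 against N+P C5 8 of the 31 peaks were higher and 7 lower, against 10.3% and 6.97% of all peaks. The higher ones were 2 each of Slamf7 and Crtam and 1 each of Clec2d, Lilrb4a, Itga2 and Tigit (0.92 to 5.38), and the lower ones were 4 of Cd226 and 1 each of Cd96, Clec2d and Crtam (-2.35 to -1.01). The adjusted p of those named calls that involve Sensitized libraries in DESeq2 ran from 9.51e-34 to 0.0183. Leaving out Sensitized replicates 3 and 4, all 6 adaptor and 4 receptor calls in Sensitized against Naive remained. In S+P C5 against Sensitized 3 of 5 adaptor calls (not 2 of Fyn), the Clec2d call and 4 of 8 receptor calls remained, and those lost were Cd96 (-0.39, adjusted p = 0.716) and all 3 of Cd226 (-0.58 to -0.04).

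The genes whose accessibility over the 25 libraries ran most like the mean log2 level of the 17 Klr peaks were Tmem163 (Pearson's r = 0.986, Spearman's rho = 0.942), Car5b (0.984, 0.943), Fbxl2 (0.983, 0.948), Gzmm, the gene of granzyme M (0.982, 0.958), and Lgals3, the gene of galectin-3 (0.981, 0.934). The lowest values were those of Tppp2 (-0.966), Cep57l1 (-0.933) and Tle5 (-0.932), among 8641 genes with a median of 0.01. Within the 16 sensitized libraries the 5 highest genes had r between 0.918 and 0.976, and within the 9 others between 0.446 and 0.629. The 3 lowest had -0.754 to -0.895 within the 16, and within the 9 others Tle5 had -0.45, Tppp2 -0.395 and Cep57l1 0.017. The libraries of a group share their treatment, and many share a replicate number, so the points are not independent. The mean also joins peaks that ran in opposite directions and is not a common level. Over the 25 libraries Klrg1 +12667 had r = 0.976 with Klrc1 +328, but -0.82 with Klrd1 +153 and -0.79 with Klrk1 +15123.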

How the data were processed

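Per the labels and the study's methods, the authors trimmed reads with Cutadapt 3.4, aligned them to GRCm39 with Bowtie2 2.2.9, removed reads without a unique position and duplicates (Picard 2.21.8), called peaks per library with Genrich 0.6.1 and kept those that recurred within a group (ChIP-R). They merged the 7 group lists with bedtools 2.27.1 and counted reads per library. The deposited table holds raw counts of 13527 peaks in 25 libraries. The deposited peak lists give a score, a signal value, a p-value and a q-value per peak, pooled over a group, of which only the list membership was used here.

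The counts were tested with DESeq2 1.42.0 (R 4.3.3; Wald test in 1 fit over all libraries with group as its term, default size factors and independent filter, and Benjamini-Hochberg adjustment over all peaks). Thresholds followed the study's methods. Alternatives were edgeR 4.0.16, other scalings and filters, loess offsets, 2-group fits, the replicate number as a block and leaving out libraries. The DESeq2 script was tested on simulated data. Member peaks, lists and tests were chosen with earlier results of these data known. All 17 Klr peaks passed the low-count filter (at least 10 counts in at least 3 libraries), and depth is given as total counts in peaks. p-values measure the spread between libraries. Without the block, libraries of different subsets with the same replicate number count as independent. Named were all Klr peaks, with values in every library where called, and the 5 genes most and 3 least like their mean level (genes with a mean summed count of at least 50, pseudocount 1).

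Same-numbered libraries deviated together from their group means in N+P C5 and C1 (r from 0.108 to 0.4), S+P C5 and C4 (0.103 to 0.572) and S+P C7 and C5 (0.522 to 0.771), all over 0.1, so the numbers were taken to pair them. In the other comparisons they are only numbers. RNA was not analysed here.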

Additional observations from a re-analysis of the deposited data

Results flagged for a closer look

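In 68 groups of 4 libraries, over the 17 Klr peaks, 2 values stood apart from the others of their group by Dixon's test, which chance alone would do in about 1 in 20 groups. At Klrg1 -2030, S+P C5 replicate 2 had a normalized count of 268 (267.856), against 93.0 to 119 in the other 3 libraries. At Klrb1c -7254, S+P C4 replicate 1, the shallowest library, had 221 (221.172), against 506 to 535 in the others.

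At 3 peaks the C5 effect of pregnancy differed between sensitized and naive mice at an adjusted p under 0.1 in the test of the difference itself (DESeq2). The difference was -0.75 for Klrd1 +153 (adjusted p = 0.0211; -0.68 in sensitized and 0.07 in naive mice), -0.81 for Klrk1 +15123 (adjusted p = 0.0223; -0.58 and 0.23) and -0.32 for Klrb1c -10222 (adjusted p = 0.0985; -0.10 and 0.21), on the log2 scale. Without Sensitized replicates 3 and 4 the adjusted p of the 3 were 0.202, 0.224 and 0.596. This test was chosen after seeing the data, and in it pregnancy cannot be told apart from the sort for PD1 and CD73.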

How the results depend on the processing

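Of 21 calls of a Klr peak in a comparison, 13 held under every alternative run for them and 1 changed sign, Klrg1 +13640 in S+P C7 against Sensitized, at -0.10 with loess offsets. With loess offsets 0 Klr peaks were called in S+P C7 against Sensitized (3 in the fit as reported) and 3 in S+P C5 against S+P C4 (0 as reported), all lower and all of Klrg1. Without Sensitized replicates 3 and 4 there were 0 in S+P C7 against Sensitized. A fit to the 2 groups only called 2 in S+P C7 against S+P C5, as did the replicate block. The block also gave 1 call, Klrc1 +328, in S+P C5 against Sensitized, where libraries share only a number, and it moved no other count by over 1.5 times. Leaving out 1 library at a time gave 7 to 8 calls in Sensitized against Naive, 0 to 1 in S+P C4 against Sensitized (1 without Sensitized replicate 1), 0 to 1 in S+P C5 against Sensitized (1 without Sensitized replicate 1 or 2), 2 to 5 in S+P C7 against Sensitized (5 without Sensitized replicate 1 or 2), 10 in S+P C5 against N+P C5, 0 to 1 in the difference of the C5 effects (Klrk1 +15123, lower, without Sensitized replicate 1) and 0 in the other comparisons. The causes were not tested. edgeR, other size factors, total counts and filters on low counts kept every count of called Klr peaks within 1.5 times. Depth limits the folds over Naive and N+P C5 at Klrg1 -2030, +12667 and +13640. These peaks had 0 to 16 raw counts per library in Naive mice and 0 to 11 in N+P C5 libraries.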
